A study of Mus musculus with 6 samples.

Results

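Abundant long noncoding RNAs of the newborn mouse ovary were taken as the genes that the deposited table marks as lncRNA and whose mean level over 6 ovary libraries was at least 10 FPKM (a read count corrected for gene length and for depth). Of 47122 gene models in the table, 13305 were of this biotype and 64 reached that level. The small nucleolar RNA host genes with names starting with Snhg (8 genes), Gas5, H19 and Meg3 were left out by name, which left 53 genes. The rule used the mean over all libraries and not the difference between the groups, so the members were chosen by level, levels are given as a description, and the difference between genotypes was tested. Whole ovaries at 1 day post partum (1 dpp) came from 3 WT samples and from 3 samples in which oocytes had lost Bcas2 (Bcas2 cKO, conditional knockout), a splicing factor of the PRP19/CDC5L complex. The allele design, the Cre driver, the strain and whether a sample was 1 animal or a pool were not given in the sources used here. The p-values therefore speak of the spread of these 6 libraries, which may be technical. A description label speaks of granulosa cells, while the titles and the tissue label give ovary.

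Long noncoding RNAs are transcripts that are capped, and often spliced and polyadenylated, like messenger RNAs, but are not known to be translated into a protein. Some act in the nucleus on chromatin or in nuclear bodies, some bind proteins in the cytoplasm, and some are mainly precursors from which small nucleolar RNAs (snoRNAs) or microRNAs are cut. Others start next to the promoter of a protein-coding gene and run the other way, and for most of them no function is known. Splicing is part of the making of many of them, as it is for messenger RNAs.

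Reads assigned to genes, recovered from the FPKM values and the gene lengths, numbered 16800421 to 19565275 in a library. Shares of the reads of a library given below are of these totals, not of all reads sequenced. Bcas2 was measured at 54.5, 37.5 and 35.7 FPKM in WT, against 18.9, 21.9 and 18.3 FPKM in cKO, a ratio of means of 0.463 with no overlap between the groups (limma, log2 fold change −1.05, unadjusted p = 0.000502, adjusted p = 0.955). The oocyte marker Ddx4 was present at 31.5, 29.3 and 45.3 FPKM in WT, against 33.7, 34.1 and 31.7 FPKM in cKO, and the pregranulosa marker Foxl2 at 163, 101 and 82.3 FPKM in WT, against 82.3, 97.98 and 106 FPKM in cKO, so markers of both cell types were present. WT replicate 1 stood apart on the first principal component of all tested genes, which held 46.3% of the variance. Summed endothelial markers reached 219 FPKM in WT replicate 1 against 51.1 to 76.8 FPKM in the other libraries, and stroma markers 1424 FPKM against 416 to 676 FPKM. Erythroid markers summed to 13348 FPKM in cKO replicate 2 and to 401 to 1209 FPKM elsewhere, and immediate-early genes to 629.8 FPKM in WT replicate 2 and 76.5 to 226 FPKM elsewhere. Of 6 tested markers of mesonephros and oviduct epithelium, 0 were called. Higher in cKO without overlap were 3 of them (Cldn3, Pax8 and Foxj1, all under 5 FPKM in each library), against 4.2% of all tested genes. Cldn3, a tight junction protein, was at 0.591, 0.866 and 1.09 FPKM in WT, against 4.15, 2.63 and 3.38 FPKM in cKO (limma, log2 fold change 1.24, unadjusted p = 0.000303, adjusted p = 0.883). The part of these cells in the members' levels was not tested.

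Most of the genes lay near the limit. The levels of 31 members lay between 10 and 20 FPKM, 13 between 20 and 50 FPKM, 7 between 50 and 100 FPKM, and 2 above 100 FPKM. AY036118 led with a mean of 905 FPKM, followed by AU020206 with 142 FPKM and Xist with 81.8 FPKM. For comparison, 6363 of 22186 protein-coding genes had a mean of at least 10 FPKM, and 3843 lncRNA genes were listed at 0 in every library. Together the 53 genes took 0.483 to 0.609% of the reads of a library. The lowest members by level were Mir100hg, 1500011B03Rik and Gata6os with means of 10.5, 10.4 and 10.02 FPKM. Just outside the limit lay B230354K17Rik, 2900076A07Rik and Gm32443 with 9.93, 9.92 and 9.37 FPKM.

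The genes were spread over 18 chromosomes, with 8 on chromosome 2, 6 on chromosome 11 and 4 on the X. Their deposited gene lengths ran from 372 to 17918 bases with a median of 1401 bases, close to the 1382.5 bases of the other tested lncRNAs. GENCODE M21 transcripts were matched for 48 of the 53 genes. Of these, 4 had 1 exon, 6 had 2 exons and 38 had 3 or more, up to 20 exons in Firre. The table itself gives a similarity to a known protein for 7 members, so the biotype does not settle for these whether they are translated. Among them Gm45889 and Gm14230 resemble retroviral envelope proteins, Ccdc201 carries the symbol of a coiled-coil protein, and AU015836 resembles a mitochondrial import protein.

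**Figure D1:**
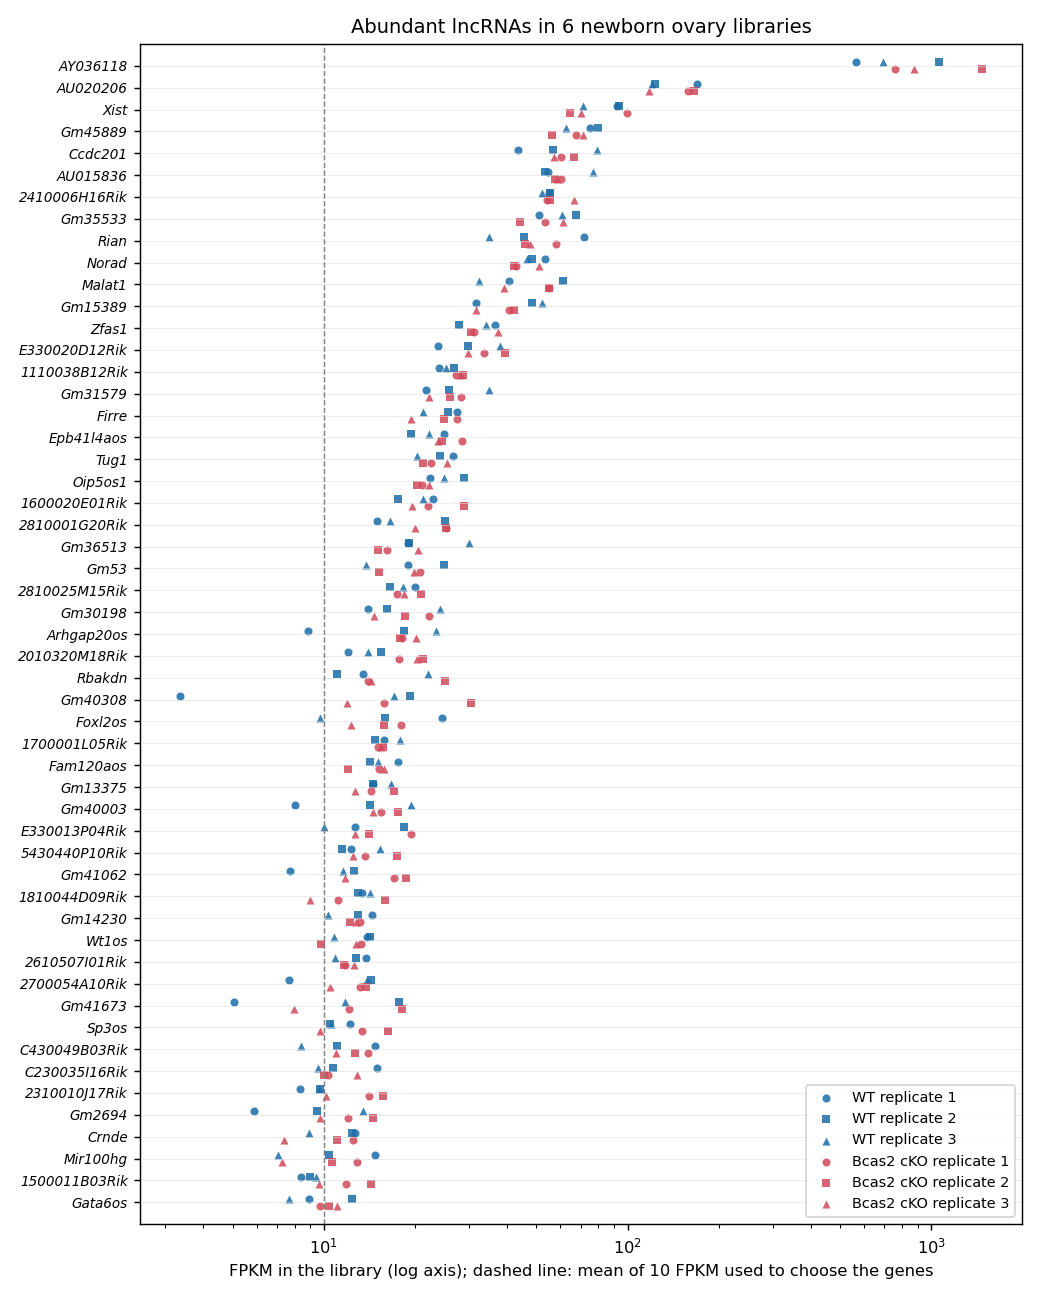
FPKM of each of the 53 abundant lncRNAs in the 6 libraries, on a log axis, ordered by mean level, with 3 WT libraries in blue and 3 Bcas2 cKO libraries in red and 1 symbol shape for each replicate number. The dashed line marks the mean of 10 FPKM used to choose the genes; for most genes the blue and red points interleave, and Gm40308 lies far to the left in WT replicate 1.

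No member was called different between the genotypes. None of the 53 passed an adjusted p of 0.05 (limma on log2(FPKM + 1), Benjamini-Hochberg over 14589 tested genes), and none of all tested genes did (0.0% called). The smallest adjusted p among the members was 0.955. At an unadjusted p under 0.05, 4 of 53 members were higher in cKO and 0 lower, where 3.04% of all tested genes reached that level in either direction and 1.89% did so with a higher level in cKO. Among the other 642 tested lncRNAs, 28 were higher in cKO at that level and 7 lower, so a lean upward was not particular to the members. The groups did not overlap for 5 of 53 members, against 7.88% of all tested genes. Of these, 2010320M18Rik, 2310010J17Rik, 1500011B03Rik and 1110038B12Rik were higher in cKO (4.2% of all tested genes) and Oip5os1 was lower (3.67%). In the other 642 tested lncRNAs, the groups did not overlap for 71, with 54 higher in cKO and 17 lower. limma-voom on the recovered reads also called 0 members and 0 genes, with 1 member and 381 genes at an unadjusted p under 0.05. The count of 4 members dropped to 1 without cKO replicate 1 and to 2 without cKO replicate 2.

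The median log2 fold change (cKO over WT, on the log2(FPKM + 1) scale) was 0.051 over the members and −0.0058 over all tested genes. It was 0.046 over the other 642 tested lncRNAs and −0.00095 over protein-coding genes of at least 10 FPKM. A positive sign was found for 31 of 53 members (58.5%), for 59.8% of the other tested lncRNAs and for 48.7% of all tested genes. After rescaling to TPM, which moved the median of all genes to −0.075, the sign was positive for 25 of 53 members and their median was −0.029. Single genes ranged from −0.36 for Gm36513 to 0.70 for Gm40308. The 95% interval of a member reached a median of 0.43 to either side, so differences below that size could not be resolved for a typical member. In bulk samples, fewer cells of a type and less RNA per cell cannot be told apart, which holds for every difference given here.

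**Figure D2:**
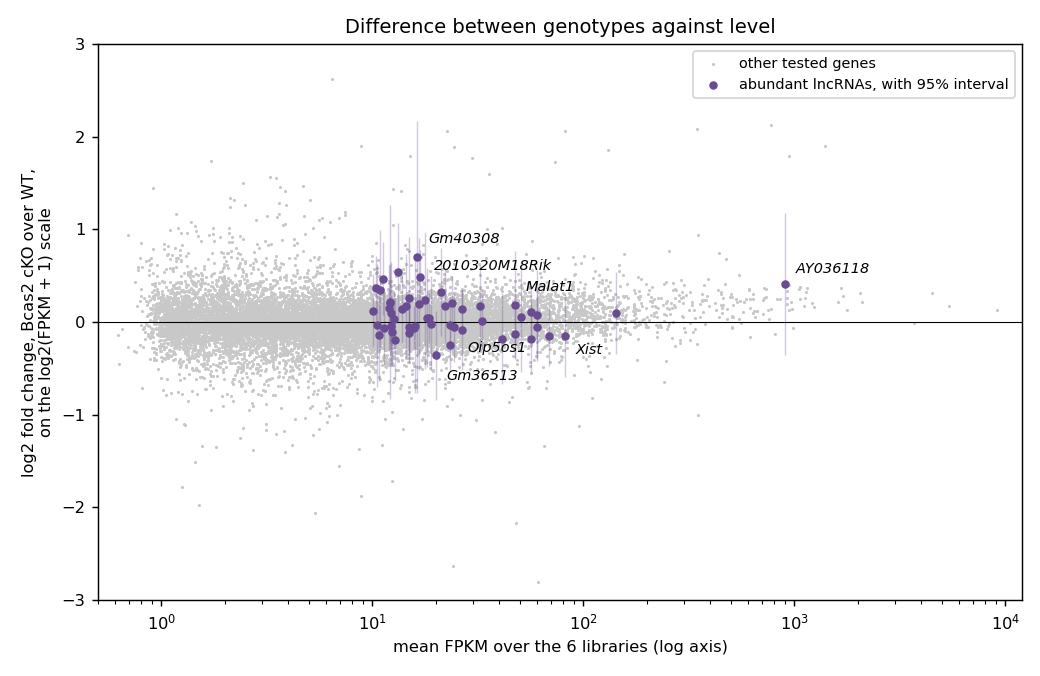
Log2 fold change of Bcas2 cKO over WT on the log2(FPKM + 1) scale against the mean FPKM over the 6 libraries (log axis), for the 53 abundant lncRNAs in purple with 95% limma intervals and for the other tested genes in grey. The purple points lie between −0.36 and 0.70, and AY036118 stands alone at the right.

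Among the members known to work in the nucleus, Xist, the RNA that coats the inactive X chromosome in female cells, was the most abundant. It lies on chromosome X from 102503979 to 102526839 on the minus strand (GRCm39; 7 exons), was the longest gene of the set with 17918 bases, and took 0.116 to 0.183% of the reads of a library, more than any other member except in cKO replicate 2, where AY036118 took 0.208%. Xist was measured at 92.4, 93.3 and 71.02 FPKM in WT replicates 1, 2 and 3 and 99.2, 64.7 and 70.1 FPKM in cKO replicates 1, 2 and 3. The group means were 85.6 ± 12.6 FPKM for WT and 78.01 ± 18.5 FPKM for cKO (± SD, n = 3), the ranges overlapped, and limma gave a log2 fold change of −0.15 (SE 0.19) with an adjusted p of 0.955. cKO replicate 1 had the highest level of all 6 libraries and cKO replicate 2 the lowest. Tsix, which runs through Xist on the other strand, had at most 1 read in any library.

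Malat1, a nuclear RNA found at the speckles where splicing factors gather, lies on chromosome 19 from 5845718 to 5852700 on the minus strand. Its levels were 40.5, 61.3 and 32.4 FPKM in WT, against 55.1, 54.99 and 39.1 FPKM in cKO, in replicate order. WT replicate 2 was the highest and WT replicate 3 the lowest of all libraries, so the WT values spanned the cKO values, and the log2 fold change was 0.18 (SE 0.25). Without WT replicate 3 it was −0.021. Firre, an X-linked RNA that helps to anchor chromosome regions in the nucleus, was measured at 27.5, 25.7 and 21.1 FPKM in WT, against 27.4, 24.9 and 19.4 FPKM in cKO (log2 fold change −0.056 (SE 0.16)). Tug1, which is needed for male fertility in mice, was at 26.6, 24.2 and 20.3 FPKM in WT, against 22.5, 21.2 and 25.4 FPKM in cKO (−0.036 (SE 0.13) on the log2 scale). Crnde, first described for its high level in colorectal tumours, was at 12.7, 12.3 and 8.94 FPKM in WT, against 12.5, 11.1 and 7.38 FPKM in cKO (−0.14 (SE 0.21)), and its sign turned to 0.064 without cKO replicate 3. In each of these 4 genes the ranges of the groups overlapped.

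Proteins known to work with these nuclear RNAs were listed beside them. Of 18 tested factors of X inactivation, 0 were called, 14 were lower in cKO and 4 higher, with a median log2 fold change of −0.051. Ezh2, the methyltransferase of Polycomb repressive complex 2, had a log2 fold change of −0.16. Of 15 tested nuclear speckle proteins, 0 were called, 6 were higher and 9 lower. The splicing kinase Clk1 was measured at 50.7, 57.2 and 57.8 FPKM in WT, against 83.3, 70.3 and 65.04 FPKM in cKO, with no overlap (log2 fold change 0.39 (SE 0.12), limma unadjusted p = 0.0143, adjusted p = 0.955). Srrm1, a coactivator of splicing, was at 48.7, 39.5 and 39.3 FPKM in WT, against 35.3, 34.8 and 35.6 FPKM in cKO, also without overlap and in the other direction (−0.26 (SE 0.11), limma unadjusted p = 0.0489). Of 16 tested paraspeckle proteins, 0 were called and 13 were lower in cKO, Rbm12 with the smallest p at 21.9, 19.03 and 19.9 FPKM in WT, against 16.2, 15.3 and 17.1 FPKM in cKO (log2 fold change −0.31 (SE 0.10), limma unadjusted p = 0.0158). The median over the paraspeckle list was −0.033, where that of all tested genes was −0.0058.

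Norad is a cytoplasmic RNA known for binding Pumilio proteins, which repress messenger RNAs, through many copies of the Pumilio motif. It is a gene of 1 exon on chromosome 2 from 156229983 to 156234899 on the minus strand. A script counted TGTANATA on the transcribed strand of the matched GENCODE M21 transcripts (N is any base). Norad held 11 matches in 4915 bases, or 2.24 per kilobase, the most of any member. Rian followed with 7 matches, Xist with 6 and Foxl2os with 2. In all, 12 of 48 matched members (25%) held at least 1 match, against 8.47% of 30258 GENCODE M21 lncRNA transcripts, but the members' longest transcripts, with a median of 1570 bases, were longer than those 30258, with a median of 687 bases. Per kilobase the members had 0.266 matches, 0.187 without Norad, against 0.0981. The stretch shown here, bases 2404 to 2463 of the Norad transcript, holds the closest pair of matches, in capitals.
Norad 2404-2463: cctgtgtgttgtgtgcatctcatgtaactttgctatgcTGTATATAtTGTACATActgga
Norad itself was measured at 53.5, 48.6 and 46.5 FPKM in WT, against 42.8, 42.4 and 50.9 FPKM in cKO. The means were 49.5 ± 3.63 FPKM for WT and 45.4 ± 4.79 FPKM for cKO (± SD, n = 3), with overlap and a log2 fold change of −0.13 (SE 0.11). The listed binding proteins Pum2, Samd4b, Rbmx and Top1 had lower means in cKO with 0 called. Pum2 was at 20.4, 20.4 and 20.04 FPKM in WT, against 19.4, 16.9 and 19.6 FPKM in cKO, a log2 fold change of −0.12. WT replicate 1 was above the mean of the other libraries for each of these proteins.

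Oip5os1, also called Cyrano, is a conserved RNA known for starting the decay of a microRNA that pairs with it. It lies on chromosome 2 from 119424777 to 119431227 on the plus strand (3 exons). Its level was 22.4, 28.9 and 24.8 FPKM in WT replicates 1, 2 and 3 and 21.03, 20.2 and 22.1 FPKM in cKO replicates 1, 2 and 3. Every cKO value lay below every WT value, the only member with that pattern. The means were 25.4 ± 3.27 FPKM for WT and 21.1 ± 0.961 FPKM for cKO (± SD, n = 3), a log2 fold change of −0.25 (SE 0.11) with a 95% interval of −0.52 to 0.021, and limma gave an unadjusted p of 0.0659 and an adjusted p of 0.955. Without WT replicate 2, its highest library, the log2 fold change was −0.15. Of 22 tested members of the nuclear exosome and its adaptors, which degrade many noncoding RNAs, 0 were called, 14 were higher in cKO and 8 lower. Zfc3h1, an adaptor that brings polyadenylated nuclear RNA to the exosome, was at 19.4, 19.4 and 17.7 FPKM in WT, against 15.5, 15.4 and 15.04 FPKM in cKO, with no overlap (log2 fold change −0.28 (SE 0.09), limma unadjusted p = 0.0136, adjusted p = 0.955). Rbm7, of another exosome adaptor, was second at 39.02, 44.6 and 46.7 FPKM in WT, against 49.4, 48.7 and 47.4 FPKM in cKO, also without overlap and in the other direction (0.16 (SE 0.10)).

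Members that carry microRNAs were Mir100hg, C430049B03Rik and Rian, with 9 microRNA genes of the table inside them. A mature microRNA finds its targets mainly through its seed, bases 2 to 8. RefSeq (GRCm38.p6) gave sequences for all 9 genes, 17 mature strands in all. Of these, 5 strands of Mir100hg and C430049B03Rik and 1 of Rian are shown to compare their seeds, in capitals.
mmu-miR-125b-5p (Mir100hg): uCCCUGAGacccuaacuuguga
mmu-miR-100-5p (Mir100hg): aACCCGUAgauccgaacuugug
mmu-miR-351-5p (C430049B03Rik): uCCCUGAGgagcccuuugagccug
mmu-miR-503-5p (C430049B03Rik): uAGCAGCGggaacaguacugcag
mmu-miR-322-5p (C430049B03Rik): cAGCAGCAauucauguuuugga
mmu-miR-370-3p (Rian): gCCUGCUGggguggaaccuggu
The strands miR-125b-5p of Mir100hg and miR-351-5p of C430049B03Rik share the seed CCCUGAG, although their hosts lie on chromosomes 9 and X. The seeds of miR-503-5p and miR-322-5p, AGCAGCG and AGCAGCA, differ in their last base only. The 3 microRNA genes inside C430049B03Rik were listed at 0 in every library and those inside Mir100hg and Rian had means under 1 FPKM, so the values given here are those of the hosts.

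Mir100hg lies on chromosome 9 from 41287822 to 41526481 on the plus strand and was measured at 14.7, 10.4 and 7.08 FPKM in WT, against 12.9, 10.7 and 7.29 FPKM in cKO. WT replicate 1 was the highest library and WT replicate 3 the lowest, and the log2 fold change was −0.036 (SE 0.28). It turned to 0.20 on leaving out WT replicate 1 and to 0.17 on leaving out cKO replicate 3. C430049B03Rik, on chromosome X from 52141989 to 52146067 on the minus strand, was at 14.7, 11.1 and 8.38 FPKM in WT, against 13.99, 12.6 and 10.9 FPKM in cKO (0.15 (SE 0.20) on the log2 scale), again with its extremes in WT replicates 1 and 3. Rian, an imprinted RNA made from the maternal chromosome, lies on chromosome 12 from 109570379 to 109628150 on the plus strand and overlaps 11 snoRNA genes and the protein-coding Rtl1, which runs on the other strand. Rian was at 71.8, 45.5 and 34.97 FPKM in WT, against 57.95, 46.1 and 47.8 FPKM in cKO, with the highest and the lowest value both in WT. Its log2 fold change of 0.051 (SE 0.25) turned to −0.18 without WT replicate 3 and to −0.048 without cKO replicate 1. The snoRNA gene AF357359 inside Rian, a row of only 30 bases, was listed at 495, 353 and 222 FPKM in WT, against 455, 335 and 288 FPKM in cKO and had its 2 highest libraries and its lowest in common with Rian. Mean levels of the other snoRNA rows inside Rian were under 10 FPKM.

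The other snoRNA hosts among the members were 2410006H16Rik, Zfas1, 1110038B12Rik and Epb41l4aos, whose introns carry guide RNAs for the chemical modification of other RNAs. All had positive log2 fold changes and 0 of 4 were called. Epb41l4aos, on chromosome 18 from 33927945 to 33929042 on the plus strand, was measured at 24.8, 19.3 and 22.2 FPKM in WT, against 28.4, 24.6 and 23.7 FPKM in cKO, a log2 fold change of 0.20 (SE 0.12) with overlap between WT replicate 1 and the cKO values. 1110038B12Rik was at 23.9, 26.8 and 25.2 FPKM in WT, against 27.2, 28.7 and 28.4 FPKM in cKO, and all 3 cKO values lay above all 3 WT values. Its difference was small, 0.15 (SE 0.09) on the log2 scale with an unadjusted limma p of 0.137 and an adjusted p of 0.955. 2410006H16Rik, on chromosome 11 from 62493703 to 62495632 on the plus strand, was at 55.3, 55.3 and 52.2 FPKM in WT, against 54.3, 55.7 and 66.4 FPKM in cKO, with cKO replicate 3 above the rest (0.11 (SE 0.11)). Zfas1 was at 36.5, 27.8 and 34.2 FPKM in WT, against 31.1, 30.6 and 37.4 FPKM in cKO (0.011 (SE 0.14)). The snoRNA inside Epb41l4aos, Gm23639, had 1 to 13 reads in a library, too few to set beside its host.

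Of the 53 members, 14 started within 1000 bases of the start of a tested protein-coding gene on the other strand (26.4%, against 30.5% of the other 642 tested lncRNAs). Pairs of this kind can share the stretch between their starts as a promoter region, which was not tested for these pairs. The partners were taken by position and not by their values. Levels of a member and its partner were often unlike: the lncRNA had the higher mean FPKM in 7 of 14 pairs, and the ratio ran from 0.0966 for Wt1os against Wt1 to 5.59 for 2810025M15Rik against Rasal2, with a median of 0.781. 2810025M15Rik is annotated with a similarity to ribosomal protein L37a, and whether its reads come from such sequence was not tested. The log2 fold changes of member and partner had the same sign in 6 of 14 pairs, and 0 partners had an unadjusted p under 0.05. In 6 pairs the genes overlap, and the strand setting of the counting is not known, so their reads cannot be told apart with certainty.

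RefSeq promoter windows (GRCm38.p6, 250 bases before to 50 bases after a start) were matched for 42 of 53 members, 46 windows in all. The 13 windows of head-to-head members had a median GC content of 71.7% and a median of 37 CpG dinucleotides, against 50.3% and 12 in the 33 windows of the other members and 52.7% and 7 in all 32851 windows. The GC box GGGCGG, searched on both strands, was in 11 of 13 head-to-head windows (84.6%), in 52.2% of all member windows and in 35.7% of all windows. TATAAA was in 0 of 13 head-to-head windows, 19.6% of member windows and 13.6% of all windows. CCAAT was in 0 of 13, 37.0% and 37.4%, and CACGTG in 2 of 13, 17.4% and 7.15%. In the sequences below, matches to these 4 motifs or their reverse complements are in capitals. The windows shown are of 4 head-to-head members discussed next and of Gm40308, which has no such partner and the widest spread of all members. They are 2010320M18Rik at chr8:70776612-70776911 (plus strand), 2310010J17Rik at chr7:90129887-90130186 (minus strand), Foxl2os at chr9:98955261-98955560 (minus strand), Wt1os at chr2:105126461-105126760 (minus strand) and Gm40308 at chr5:61774132-61774431 (minus strand), all 5′ to 3′. 2310010J17Rik has another RefSeq window with 44.7% GC, 9 CpG dinucleotides and none of the 4 motifs, which is not printed. The printed windows do not show the range of their groups. That of the head-to-head Gm14230, not printed, had 46% GC, 5 CpG dinucleotides and none of the 4 motifs. Gm40308 had 38% GC and 0 CpG dinucleotides, while 1700001L05Rik, also without such a partner, had 70.3% GC and 30 CpG dinucleotides.
2010320M18Rik: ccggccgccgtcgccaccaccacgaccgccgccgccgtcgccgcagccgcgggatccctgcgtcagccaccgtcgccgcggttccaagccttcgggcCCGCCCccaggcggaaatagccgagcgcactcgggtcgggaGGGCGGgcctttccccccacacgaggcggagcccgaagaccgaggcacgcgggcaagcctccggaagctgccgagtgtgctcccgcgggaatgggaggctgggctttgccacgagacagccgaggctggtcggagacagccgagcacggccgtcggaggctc
2310010J17Rik: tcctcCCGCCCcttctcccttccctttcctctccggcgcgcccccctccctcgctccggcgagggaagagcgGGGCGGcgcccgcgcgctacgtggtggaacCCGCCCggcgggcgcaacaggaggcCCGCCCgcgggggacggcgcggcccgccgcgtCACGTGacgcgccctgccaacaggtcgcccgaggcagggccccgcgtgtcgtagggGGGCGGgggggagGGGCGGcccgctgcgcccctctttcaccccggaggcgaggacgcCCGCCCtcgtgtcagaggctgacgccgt
Foxl2os: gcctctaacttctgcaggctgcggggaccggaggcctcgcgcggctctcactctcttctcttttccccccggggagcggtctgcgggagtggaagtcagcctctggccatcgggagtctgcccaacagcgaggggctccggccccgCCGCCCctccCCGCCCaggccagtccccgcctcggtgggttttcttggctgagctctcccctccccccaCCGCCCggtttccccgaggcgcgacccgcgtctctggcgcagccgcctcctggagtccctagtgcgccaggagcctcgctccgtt
Wt1os: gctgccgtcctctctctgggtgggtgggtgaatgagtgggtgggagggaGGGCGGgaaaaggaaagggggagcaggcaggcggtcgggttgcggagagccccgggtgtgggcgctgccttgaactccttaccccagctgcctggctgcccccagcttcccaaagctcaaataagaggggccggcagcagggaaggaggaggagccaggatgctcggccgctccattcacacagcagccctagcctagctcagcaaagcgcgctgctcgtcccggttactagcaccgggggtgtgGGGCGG
Gm40308: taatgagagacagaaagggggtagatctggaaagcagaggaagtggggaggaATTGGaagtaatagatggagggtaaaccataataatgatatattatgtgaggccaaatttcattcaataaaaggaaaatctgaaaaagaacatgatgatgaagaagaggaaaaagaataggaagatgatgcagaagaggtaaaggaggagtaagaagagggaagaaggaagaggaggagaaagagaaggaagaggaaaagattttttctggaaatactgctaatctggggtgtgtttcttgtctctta
A match is a description of letters and says nothing of a factor bound there.

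2010320M18Rik had the smallest p of all members. It is a gene of 1 exon on chromosome 8 from 71229506 to 71230250 on the plus strand, its start 137 bases from that of Pik3r2, a regulatory subunit of phosphoinositide 3-kinase. Its level was 12.02, 15.5 and 13.9 FPKM in WT replicates 1, 2 and 3 and 17.7, 21.2 and 20.2 FPKM in cKO replicates 1, 2 and 3. All cKO values lay above all WT values. The means were 13.8 ± 1.73 FPKM for WT and 19.7 ± 1.82 FPKM for cKO (± SD, n = 3), a log2 fold change of 0.49 (SE 0.12) with a 95% interval of 0.19 to 0.78, and limma gave an unadjusted p of 0.00567 and an adjusted p of 0.955. Leaving out any 1 library gave 0.40 to 0.57. Pik3r2 was at 41.6, 45.6 and 37.97 FPKM in WT and 39.7, 40.2 and 41.1 FPKM in cKO, with a log2 fold change of −0.044. 2310010J17Rik starts 274 bases from Picalm, which codes for a clathrin assembly protein. It was measured at 8.32, 9.74 and 9.61 FPKM in WT, against 14.1, 15.7 and 10.1 FPKM in cKO, again without overlap but with cKO replicate 3 close to WT (0.47 (SE 0.17), limma unadjusted p = 0.0256, adjusted p = 0.955). 2310010J17Rik rested on only 78 to 142 reads in a library. Picalm was at 60.1, 47.4 and 54.6 FPKM in WT and 53.1, 60.7 and 53.2 FPKM in cKO, a log2 fold change of 0.046.

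Foxl2os and Wt1os start beside genes for transcription factors of the ovarian somatic cells. Foxl2os, on chromosome 9 from 98831208 to 98837363 on the minus strand, begins 297 bases from Foxl2, which keeps pregranulosa cells in the female fate. Its levels were 24.4, 15.9 and 9.68 FPKM in WT, against 17.9, 15.8 and 12.3 FPKM in cKO. WT replicate 1 was the highest and WT replicate 3 the lowest library, and Foxl2 had its highest value in WT replicate 1 as well. The log2 fold changes were −0.040 (SE 0.31) for Foxl2os and −0.22 for Foxl2. Without WT replicate 1 that of Foxl2os was 0.27, and without cKO replicate 3 it was 0.10. Wt1os, 19 bases from the start of Wt1, a factor of gonad formation, was at 13.8, 14.2 and 10.8 FPKM in WT, against 13.3, 9.77 and 12.8 FPKM in cKO, and Wt1 at 146, 150.1 and 109 FPKM in WT and 122, 112 and 132 FPKM in cKO. Their log2 fold changes were −0.11 and −0.13. Markers of pregranulosa cells, 11 tested with 0 called, had a median of −0.054 and 6 were lower in cKO. Gata6os, beside the start of Gata6, was at 8.90, 12.3 and 7.69 FPKM in WT, against 9.73, 10.4 and 11.1 FPKM in cKO (0.12 (SE 0.17)) where Gata6 was at 56.4, 46.003 and 33.6 FPKM in WT and 34.3, 35.2 and 42.2 FPKM in cKO (log2 fold change −0.25).

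Among other members named for the gene on the opposite strand, Fam120aos was at 17.6, 14.2 and 15.03 FPKM in WT, against 15.2, 12.04 and 15.8 FPKM in cKO (−0.12 (SE 0.14)). Sp3os overlaps Sp3, which codes for a transcription factor that binds GC boxes, and was at 12.2, 10.4 and 10.6 FPKM in WT, against 13.4, 16.3 and 9.70 FPKM in cKO (0.20 (SE 0.18)). Arhgap20os overlaps Arhgap20, and was at 8.85, 18.4 and 23.4 FPKM in WT, against 18.1, 17.8 and 20.2 FPKM in cKO. WT replicate 1 had less than the other 5 libraries, so the log2 fold change of 0.23 (SE 0.31) turned to −0.15 without it. The starts of Sp3os and Arhgap20os lie 1014 and 110534 bases from those of Sp3 and Arhgap20, so these are not head-to-head pairs. Zfas1 and Znfx1 are a head-to-head pair, with Zfas1 at 3.76 times the mean level of Znfx1, and Tug1 had 1.31 times that of Morc2a. 2810001G20Rik starts 12 bases from Cox10, an enzyme of heme A synthesis. It was at 14.97, 25.1 and 16.5 FPKM in WT, against 25.2, 25.3 and 19.95 FPKM in cKO, a log2 fold change of 0.33 (SE 0.20) with overlap, while Cox10 had −0.11. Gm2694, 220 bases from Cbln1, was at 5.90, 9.47 and 13.4 FPKM in WT, against 11.98, 14.5 and 9.69 FPKM in cKO (0.35 (SE 0.27)) and Cbln1 at a mean of 3.05 FPKM.

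**Figure D3:**
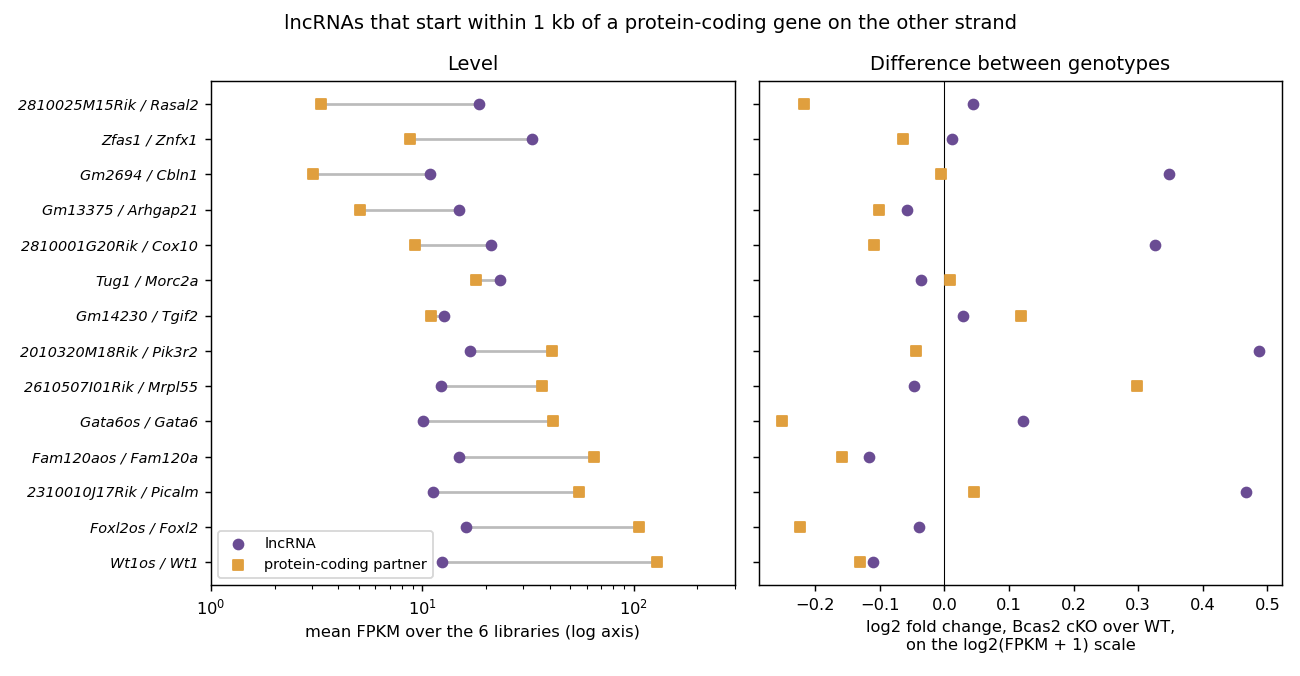
The 14 pairs of an abundant lncRNA and a protein-coding gene that start within 1000 bases of each other on opposite strands: mean FPKM over the 6 libraries on a log axis (left) and log2 fold change of Bcas2 cKO over WT (right), lncRNAs as circles and partners as squares. The lncRNA has the higher level in 7 pairs, and in 2010320M18Rik, 2310010J17Rik and Gm2694 its fold change lies apart from a partner near 0. 2810001G20Rik, at 0.33, also lies apart from its partner, at −0.11.

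AY036118 was the most abundant member by far. It is annotated on chromosome 17 from 40158556 to 40209276 on the minus strand (GRCm39), a locus that in the mouse assembly borders sequence resembling ribosomal RNA precursors. Its level was 565, 1063 and 693 FPKM in WT replicates 1, 2 and 3 and 760.1, 1472 and 875 FPKM in cKO replicates 1, 2 and 3. The cKO mean was higher, at 774 ± 258 FPKM for WT and 1035 ± 382 FPKM for cKO (± SD, n = 3), but the groups overlapped and limma gave a log2 fold change of 0.41 (SE 0.32) with an adjusted p of 0.955. The value was 0.13 without cKO replicate 2, its highest library. A second row, LOC118568312, lies 493 bases away on the other strand and was at 637, 1536 and 843 FPKM in WT, against 916, 1917 and 1009.5 FPKM in cKO. The 6 libraries stood in the same order for both rows, and AY036118 was 0.692 to 0.886 times its neighbour. AY036118 made up 29.1 to 50.3% of the summed FPKM of the members. Without it, the members took 0.385 to 0.484% of the reads of a library. How much of its signal came from ribosomal RNA was not tested.

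**Figure D4:**
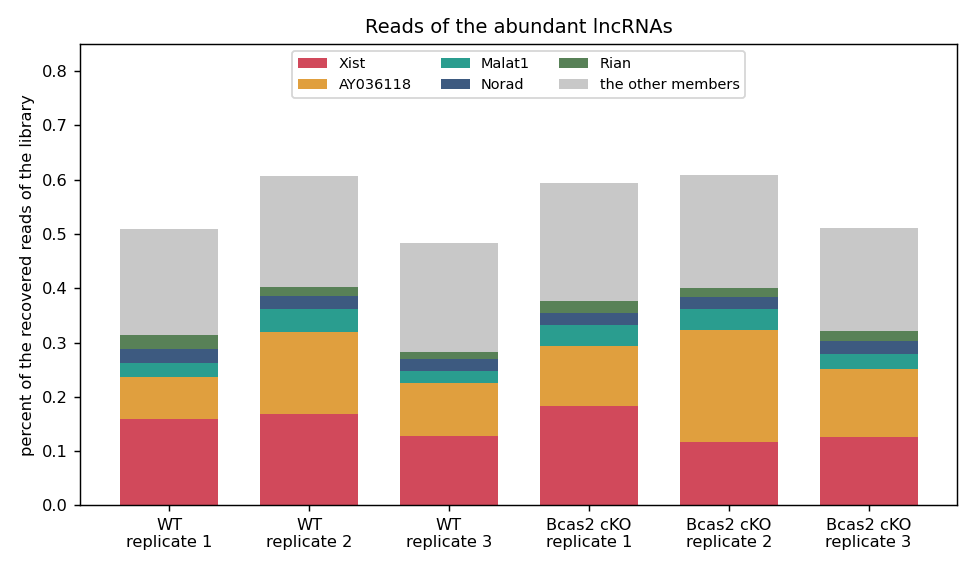
Percent of the recovered reads of each library that fell on Xist, AY036118, Malat1, Norad, Rian and the remaining members, stacked, for the 3 WT and 3 Bcas2 cKO libraries. The total lies between 0.483 and 0.609%, and the orange part, AY036118, varies most, from 0.0765% in WT replicate 1 to 0.208% in cKO replicate 2.

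AU020206, the second by level, lies on chromosome 7 from 75418786 to 75431868 on the minus strand and was at 169, 123 and 119.8 FPKM in WT, against 159, 165 and 117 FPKM in cKO, with the highest value in WT and overlapping groups (0.10 (SE 0.19)). Ccdc201, on chromosome 11 from 7133157 to 7138569 on the minus strand, was at 43.5, 56.9 and 79.3 FPKM in WT, against 60.1, 66.4 and 57.3 FPKM in cKO. Its 3 WT values enclosed all cKO values (0.071 (SE 0.21)). AU015836, on the X, was at 54.8, 53.6 and 76.8 FPKM in WT, against 60.3, 57.5 and 58.3 FPKM in cKO, where the 3 cKO values lay within 3 FPKM of each other and WT replicate 3 stood above (−0.052 (SE 0.15)). Rbakdn was at 13.4, 11.05 and 21.97 FPKM in WT, against 13.9, 25.1 and 14.3 FPKM in cKO, high in WT replicate 3 and cKO replicate 2 (0.19 (SE 0.30)). Gm45889, like Gm14230 a member with a resemblance to a retroviral envelope protein, and the fourth by level, was at 74.9, 79.6 and 62.5 FPKM in WT, against 67.6, 56.3 and 71.1 FPKM in cKO (−0.15 (SE 0.13)).

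Most other members carry clone or predicted names, and no role is known for them here. Of the 28 genes of this kind, 17 had a positive and 11 a negative log2 fold change, with a median of 0.070 and 0 called. All 4 members with an unadjusted p under 0.05 were among them. 1500011B03Rik was at 8.38, 9.01 and 9.39 FPKM in WT, against 11.8, 14.3 and 9.66 FPKM in cKO, without overlap, although cKO replicate 3 exceeded WT replicate 3 by little (0.37 (SE 0.15), limma unadjusted p = 0.0410, adjusted p = 0.955). The table gives it a similarity to an uncharacterized protein. Gm41062 was at 7.71, 12.5 and 11.6 FPKM in WT, against 17.01, 18.7 and 11.8 FPKM in cKO, where cKO replicate 3 lay inside the WT range (0.54 (SE 0.22), limma unadjusted p = 0.0477, adjusted p = 0.955). Gm41062 rested on only 50 to 117 reads in a library. Without cKO replicate 2 the values of 1500011B03Rik and Gm41062 were 0.24 and 0.41.

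At the other end, Gm36513 had the most negative log2 fold change, −0.36 (SE 0.20), at 18.9, 19.1 and 30.1 FPKM in WT, against 16.2, 15.1 and 20.4 FPKM in cKO. Its highest value was in WT replicate 3 and the groups overlapped. It overlaps the protein-coding 4930562C15Rik on the other strand. 1810044D09Rik was at 13.3, 12.9 and 14.2 FPKM in WT, against 11.1, 15.9 and 8.998 FPKM in cKO, with close WT values inside a wide cKO range (−0.19 (SE 0.19)). Gm35533 was at 51.1, 67.5 and 60.98 FPKM in WT, against 53.2, 44.1 and 61.1 FPKM in cKO (−0.18 (SE 0.16)), and Gm15389 at 31.6, 48.4 and 52.1 FPKM in WT, against 40.7, 42.2 and 31.7 FPKM in cKO (−0.18 (SE 0.21)). In each of the latter the ranges overlapped as well.

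The members varied widely between libraries of 1 genotype. The median SD within groups was 0.27 on the log2 scale, against 0.25 over the other 642 tested lncRNAs, 0.18 over all tested genes and 0.15 over protein-coding genes of at least 10 FPKM. The highest library was a median of 1.65 times the lowest for the members and 2.04 times for the other tested lncRNAs, so wide spread was not particular to the members. For 11 of 53 members (20.8%) the highest library was at least 2 times the lowest, against 22.6% of all tested genes and 7.81% of protein-coding genes of at least 10 FPKM. Gm40308 varied most, at 3.37, 19.2 and 17.1 FPKM in WT, against 15.8, 30.6 and 11.9 FPKM in cKO. WT replicate 1 was far below all others with 37 reads, and the highest library, cKO replicate 2, had 9.07 times its level. Its log2 fold change of 0.70 (SE 0.62), the largest of the set, was −0.0087 without WT replicate 1. Gm40003, at 8.002, 14.2 and 19.3 FPKM in WT, against 15.5, 17.6 and 14.5 FPKM in cKO, also had its lowest value there, and its log2 fold change of 0.26 (SE 0.28) was −0.065 without that library. Gm41673 followed the same pattern at 5.05, 17.7 and 11.7 FPKM in WT, against 12.1, 18.1 and 7.94 FPKM in cKO.

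WT replicate 1 was the lowest library for 18 members (34.0%) and the highest for 13 (24.5%), against 28.7% and 27.6% of all tested genes. cKO replicate 2 was the highest for 18 (34.0%), against 21.5% of all tested genes. In 18 members (34.0%) WT replicate 1 lay below and WT replicate 3 above the mean of the other libraries, among them Arhgap20os, Ccdc201, Gm40308 and Gm40003. That pattern was shown by 35.2% of all tested genes and by several lists: 8 of 10 surface epithelium markers, 5 of 7 erythroid markers, 13 of 22 genes of the nuclear exosome list and 10 of 11 oocyte markers. The oocyte markers' sum was 1026 FPKM in WT replicate 1, 1539 FPKM in WT replicate 3 and 1066 to 1517 FPKM in the rest. The reverse, with WT replicate 1 above and WT replicate 3 below, was found in 20 members (37.7%), among them Xist, Foxl2os, Rian and Mir100hg, and in 32.3% of all tested genes. Endothelial markers showed it for 10 of 10 tested genes, stroma markers for 9 of 10, pericyte and smooth muscle markers for 9 of 9, immediate-early genes for 8 of 10, macrophage markers for 6 of 8 and pregranulosa markers for 6 of 11. The endothelial marker Pecam1 was at 24.5, 8.45 and 6.62 FPKM in WT, against 7.99, 6.72 and 7.63 FPKM in cKO. What part the makeup of the samples had in the spread of the members was not tested.

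**Figure D5:**
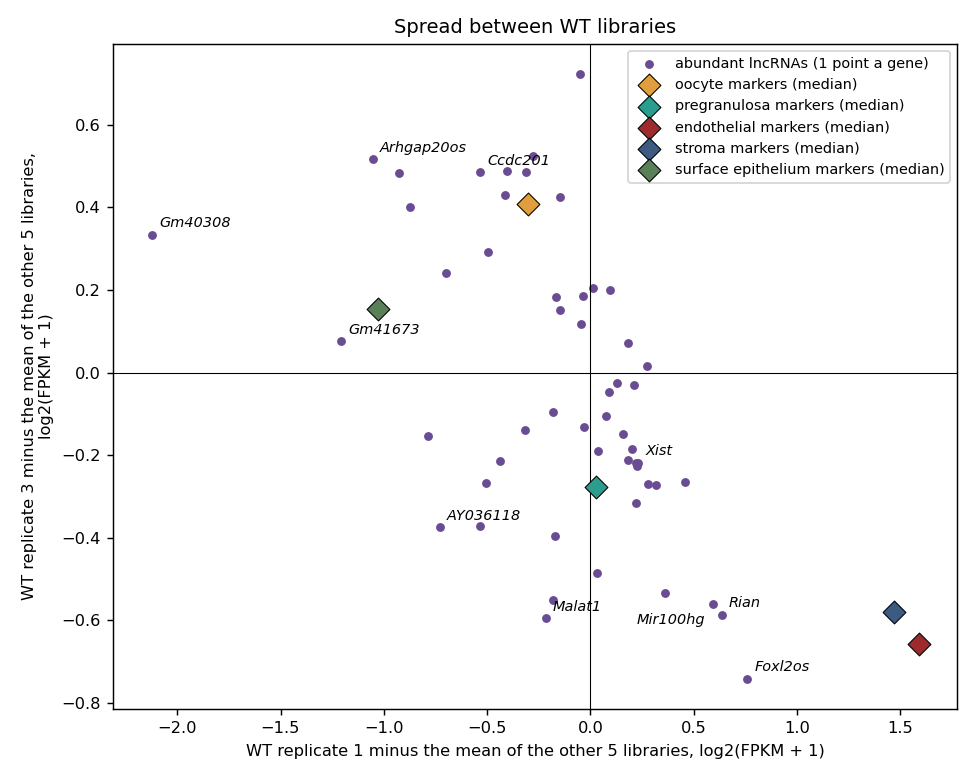
Each abundant lncRNA by how far it lies in WT replicate 1 (horizontal) and WT replicate 3 (vertical) from the mean of the other 5 libraries, on the log2(FPKM + 1) scale, with medians of 5 marker lists as diamonds. Members spread over all quadrants, Gm40308 at −2.12 in WT replicate 1 and Foxl2os at 0.76, and the oocyte median and the endothelial and stroma medians lie in opposite corners.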

How the data were processed

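RNA from 6 whole ovary samples was sequenced by the submitters, and groups and replicate numbers follow the sample titles. The authors deposited 1 table of FPKM values with the length, biotype and coordinates (GRCm39) of each gene. Named per the submitters' processing notes are the aligner HISAT2 2.0.5 and, as builds, mm10 as well as GRCm39. The counting tool, annotation release, filters and strand setting were not given in the sources used here. Gene length, another deposited value, turned FPKM into reads: FPKM times length over 1 step per library was whole within 0.05 for 100% of the values checked.

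Values were tested as log2(FPKM + 1) with limma 3.58.1 in R 4.3.3 (trend in the prior, two-sided, Benjamini-Hochberg over all tested genes, threshold 0.05). Genes with at least 1 FPKM in at least 3 of 6 samples were kept, 14589 in all and 53 of 53 members. Fold changes on this scale understate the change of low genes. The script was tested on simulated data. FPKM of 1 read on a gene of 1 kb was 0.0512 to 0.0594, and 6 members had under 100 reads in some library (37 at the fewest), where counting error weighs most.

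The members, the lists of partner and marker genes and the tests were chosen with earlier results of these data known. Genes were named by rule: members with an established symbol, the 12 highest by level, the 10 largest differences in each direction, members with non-overlapping groups, those at the limit of 10 FPKM, the 2 smallest p of each partner list, 5 marker genes, Bcas2 and genes overlapping a named member. A few genes that this rule names are not reported here. Paired members and their partners by position, snoRNA rows and further members were named after their values were seen. Promoters and microRNAs came from RefSeq (GRCm38.p6), transcripts from GENCODE M21 (GRCm38), matched by gene identifier, symbol or synonym, and no coordinates were converted between builds. Alternatives were other pseudocounts, filters, scalings and priors, array weights, limma-voom on the recovered reads, a replicate block, other limits for the level, and leaving out each sample.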

Additional observations from a re-analysis of the deposited data

How the results depend on the processing

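The 53 members had 0 calls under every alternative run, and all tested genes had 0 except under array weights, which down-weight libraries that fit poorly and called 1 gene. The median log2 fold change over the members, 0.051, was −0.029 after rescaling to TPM. The changed filters, the prior without a trend and the replicate block cannot alter a gene's log2 fold change, so its direction was fixed under them. Median-of-ratios scaling left the median over all tested genes at −0.0058, as in the main fit. With these settings counted, 267 of 275 values kept their direction and side of the threshold, over 25 named members and 11 alternatives that keep all samples. The 8 others reversed: Rian to −0.029 under TPM, Foxl2os to 0.000208 under limma-voom, and under array weights AY036118 to −0.15, Fam120aos to 0.021, Foxl2os to 0.029, Gm40308 to −0.040, Malat1 to −0.16 and Mir100hg to 0.076. The cause was not tested. Leaving out 1 sample at a time reversed 11 of 150 values, in 8 genes, with ranges of −0.15 to 0.51 for Arhgap20os, −0.36 to 0.27 for Foxl2os, −0.065 to 0.52 for Gm40003, −0.0087 to 1.10 for Gm40308, −0.28 to 0.20 for Mir100hg, −0.021 to 0.43 for Malat1, −0.18 to 0.33 for Rian and −0.28 to 0.064 for Crnde. The count of members at an unadjusted p under 0.05, 4 as reported, was 1 to 5 when a sample was left out, 9 under array weights and 1 under limma-voom. It was 8 with a limit of 5 FPKM, 0 with a limit of 20 FPKM and 2 among members with at least 100 reads in every library. These limits give sets larger or smaller than the 53 members, so the counts under them cannot be set directly against 4 of 53. Over all tested genes that count, 443, was 1147 without a filter, 254 with a filter at 5 FPKM, 1990 with array weights and 235 to 1063 when a sample was left out (1063 on leaving out WT replicate 3; for cKO replicates 3, 1 and 2 in turn 690, 270 and 235). The share of these genes that were higher in cKO, 62.3%, was 40.5% under TPM, 51.3% under array weights and 70.6% under limma-voom. It was 45.7% without WT replicate 3, 48.6% without WT replicate 1 and 60.7 to 67.8% on leaving out any other sample. 2010320M18Rik had an unadjusted p under 0.05 in 17 of 17 alternatives, with log2 fold changes of 0.31 to 0.57 and adjusted p-values of 0.300 to 0.9998 (limma), 2310010J17Rik in 13, 1500011B03Rik and Gm41062 in 9 each and Oip5os1 in 3. The labels do not say whether replicate numbers pair the samples. Deviations from the group means correlated at 0.22, 0.014 and −0.028 for numbers 1, 2 and 3, and with so few libraries these values cannot exclude a pairing. With a replicate block 0 genes were called, 432 genes and 5 members had an unadjusted p under 0.05, and the median over the members was 0.051. Depth limits 6 members with under 100 reads in some library, among them Gm40308, Gm41062 and 2310010J17Rik.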

Other observations

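Several well known lncRNAs stayed below the mean of 10 FPKM and were chosen here for their names, after their values were seen. Dnm3os, the host of microRNAs that runs opposite to Dnm3, was at 22.9, 8.46 and 3.37 FPKM in WT, against 8.36, 4.65 and 3.18 FPKM in cKO, and its level in WT replicate 1 was the highest by far (log2 fold change −0.72 (SE 0.60)). Mir17hg, the host of a microRNA cluster known for promoting cell growth, was at 5.30, 7.51 and 6.15 FPKM in WT, against 7.11, 8.05 and 5.98 FPKM in cKO (0.14 (SE 0.16)). Neat1, the RNA on which paraspeckles are built, was at 1.40, 0.993 and 1.20 FPKM in WT, against 1.60, 2.37 and 1.32 FPKM in cKO, with overlapping groups (0.32 (SE 0.19)). Malat1, which lies near Neat1, had a mean level of 47.2 FPKM where Neat1 had 1.48 FPKM. Dancr was at a mean of 3.85 FPKM, and Mirg, of the same imprinted domain as Rian, at 3.53, 2.53 and 1.93 FPKM in WT, against 3.76, 3.56 and 3.45 FPKM in cKO (0.35 (SE 0.18)). Of RNAs around Xist, Ftx had a mean of 1.96 FPKM and Jpx of 0.945 FPKM. The imprinted Peg13 was listed at 0 in all libraries. None of these had an adjusted p under 0.05 in limma, and Mirg had the smallest unadjusted p of them, 0.0898.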
